A study of Homo sapiens with 8 samples.

Results

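The desmosome is the cell junction examined here, and its transcripts were followed through nickel exposure and after nickel had been removed. A set of 10 genes that encode desmosome components was picked by gene symbol, out of 25411 genes listed for each library. The set holds DSP, JUP, PKP1, PKP2, PKP3, PKP4, DSG2, DSC2, DSC3 and PERP. It was chosen with earlier results of these data known. The 4 other desmosomal cadherins (DSG1, DSG3, DSG4 and DSC1) are listed too and are given apart. RNA-Seq had been carried out on BEAS-2B, an immortalized human bronchial epithelial line, in 8 libraries that form 4 groups of 2 biological replicates. Untreated cells (UT) received no nickel. Cells named nickel-exposed (Ni-E) grew for 6 weeks with 100 µM NiCl2, a nickel salt that dissolves in water. The nickel-washed-out group (Ni-W) went through the same exposure and was then kept in nickel-free medium for more than 6 months as a randomly chosen population grown out of a colony of exposed cells. HCl3 cells carry the Ni-W treatment text in their labels, which state neither how long they had been without nickel nor how they relate to Ni-W. The Ni-W group is thus a population expanded from isolated cells, and any property of the founding cells is part of it. By the shared treatment text the same may hold for HCl3, whose origin is not described further. The labels call both Ni-E libraries experiment 2, the HCl3 libraries experiments 3 and 4, and number no UT or Ni-W library, so the experiment and the group cannot be told apart.

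Desmosomes are spot-like junctions that rivet neighboring epithelial and heart muscle cells together and anchor their intermediate filaments. Desmogleins and desmocollins, which are cadherins, span the membrane and bind their partners on the next cell. Inside the cell their tails hold plakoglobin and the plakophilins, and desmoplakin ties this plaque to the keratin or vimentin filaments. Airway epithelium is rich in desmosomes, and desmosome genes often change when epithelial cells become more or less mesenchymal.

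Library totals ranged from 26383920 to 45692298 reads, and every one of the 10 genes had reads in all 8 libraries. Together they took between 0.0472 and 0.0906% of the reads. The cells carried the keratins of simple epithelium, with KRT8 between 192 and 310 RPKM and KRT18 between 145 and 245 RPKM (reads corrected for transcript length and library depth). Other markers of airway epithelium were scarce. EPCAM reached 1.79 RPKM, CDH1 (E-cadherin) did not exceed 0.11 RPKM, and TP63 and SFTPC had no read in any library. Over the 11 epithelial markers listed, of 12 looked for, the summed level was 338 to 369 RPKM in UT cells, 372 to 435 in Ni-E cells, 466 to 494 in Ni-W cells and 522 to 558 in HCl3 cells. The 8 fibroblast markers summed to 514 to 580 RPKM in UT cells, 325 to 501 in Ni-E cells, 398 to 413 in Ni-W cells and 641 to 670 in HCl3 cells, mostly through COL1A1 and THY1, while DCN was at 0 throughout. The 5 endothelial markers stayed at or below 0.24 RPKM in sum. The 5 blood markers summed to at most 4.24 RPKM, nearly all of it CD14, with CD3E at 0. The 5 cardiac muscle markers summed to at most 1.64 RPKM, most of it ACTC1, which was 1.24 and 1.27 RPKM in Ni-W and at most 0.11 RPKM in UT, with MYH7 at 0. Since these marker sums moved with the groups, it matters for every value below that more cells of a type and more RNA per cell cannot be told apart in bulk RNA, and the part of the marker genes in the desmosome results was not tested.

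RPKM values are scaled by transcript length, so that levels can be set in order between genes. In UT cells PKP4 led with a mean of 24.8 RPKM, followed by DSC3 (18.2), JUP (14.3), DSG2 (13.6), PERP (7.54), PKP3 (5.92), PKP2 (2.78), DSC2 (1.09), DSP (0.285) and PKP1 (0.04). The libraries of JUP and DSG2 overlapped, and those of all other neighbors in this order lay apart. Desmoplakin, the component that reaches the filaments, was thus next to last in untreated cells. PKP4 was also highest in Ni-E cells (22.7 RPKM) and in HCl3 cells (29.1 RPKM), whereas JUP was highest in Ni-W cells (38.9 RPKM). DSP moved up to a level of 2.06 RPKM in Ni-E cells, where its libraries overlapped those of DSC2, to 5.61 RPKM in Ni-W cells, and to 8.40 RPKM in HCl3 cells, where they overlapped those of PKP3. In Ni-E the libraries of DSG2 overlapped those of DSC3, and the libraries of DSC3 those of PERP. DSC3 and PERP also overlapped in HCl3. Summed over the 10 genes, the level was 88.6 ± 5.8 RPKM in UT cells, 109 ± 0.39 in Ni-E cells, 159 ± 2.4 in Ni-W cells and 122 ± 2.4 in HCl3 cells (mean ± SD, n = 2). Every nickel-treated library was above both UT libraries in this sum, and the Ni-W libraries were the highest.

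**Figure D1:**
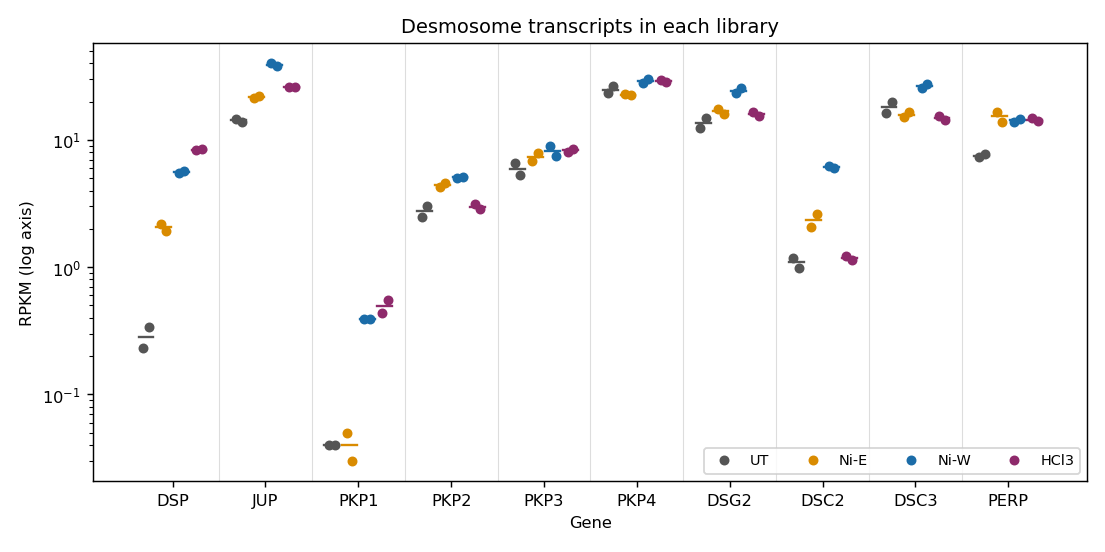
Level of each desmosome transcript in RPKM on a log axis, where each point is a library, each short line the mean of a group's 2 libraries, and the color the group. DSP is at 0.23 and 0.34 RPKM in UT cells and at 8.31 and 8.49 RPKM in HCl3 cells. DSC2 is high in Ni-W cells (6.23 and 5.97 RPKM), while HCl3 cells (1.22 and 1.13 RPKM) are near UT cells (1.19 and 0.99 RPKM).

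To ask which desmosome transcripts changed while nickel was present and after it was gone, each treated group was compared with UT. A gene was called at a DESeq2 adjusted P value under 0.05 together with a change of at least 1.5-fold. In Ni-E cells 4 of the 10 genes were higher than in UT (DSP, DSC2, PERP and PKP2), against 3.84% of the 14140 genes tested, and none was lower, against 2.1% of genes, although DSC3 was lower at an unadjusted P value under 0.05 with DESeq2 (0 genes with edgeR and 0 with limma). In Ni-W cells 7 of the 10 were higher (DSP, PKP1, DSC2, JUP, PERP, PKP2 and DSG2), against 11.1% of 15477 genes, and none was lower, against 4.95% (0 genes at an unadjusted P value under 0.05 with DESeq2, edgeR or limma). In HCl3 cells 4 of the 10 were higher (DSP, PKP1, PERP and JUP), against 11.4% of 15421 genes, and none was lower, against 3.84% (DSC3 at an unadjusted P value under 0.05 with DESeq2 and edgeR, 0 genes with limma). The median log2 fold change of the 10 genes was 0.40 in Ni-E cells, 0.86 in Ni-W cells and 0.30 in HCl3 cells, and the medians of all genes tested were -0.0024, 0.0058 and 0.0073. With limma on log2(RPKM + 1), none of the 4 genes was called in Ni-E, at adjusted P values of 0.0762 (DSP), 0.0786 (PERP), 0.106 (DSC2) and 0.127 (PKP2), while all 4 were under an unadjusted 0.05. These 3 comparisons share the UT libraries, and a low or high UT library enters each of them. With 2 libraries in a group, an exact permutation test of a single gene could not go below a P value of 0.33, and the adjusted P values depend on how DESeq2 pools the spread over genes.

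**Figure D2:**
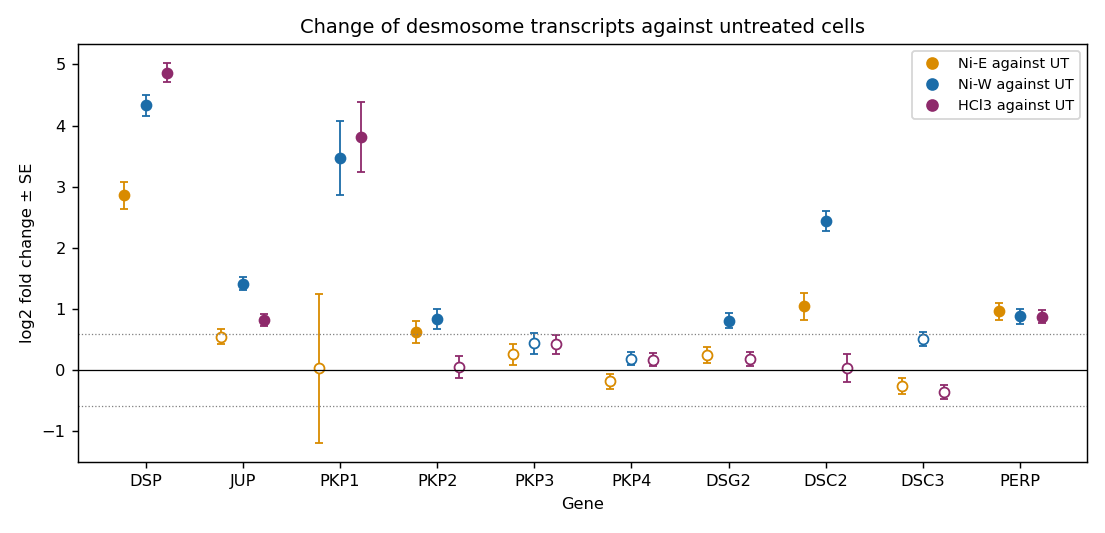
Log2 fold change (± SE from DESeq2) of each desmosome transcript against UT, for Ni-E, Ni-W and HCl3, with called genes as filled points, all others open, and dotted lines at 1.5-fold. DSP has the largest change in each comparison (2.86, 4.33 and 4.86), and DSC2, PKP2 and DSG2 are filled in Ni-W but open in HCl3.

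**Figure D3:**
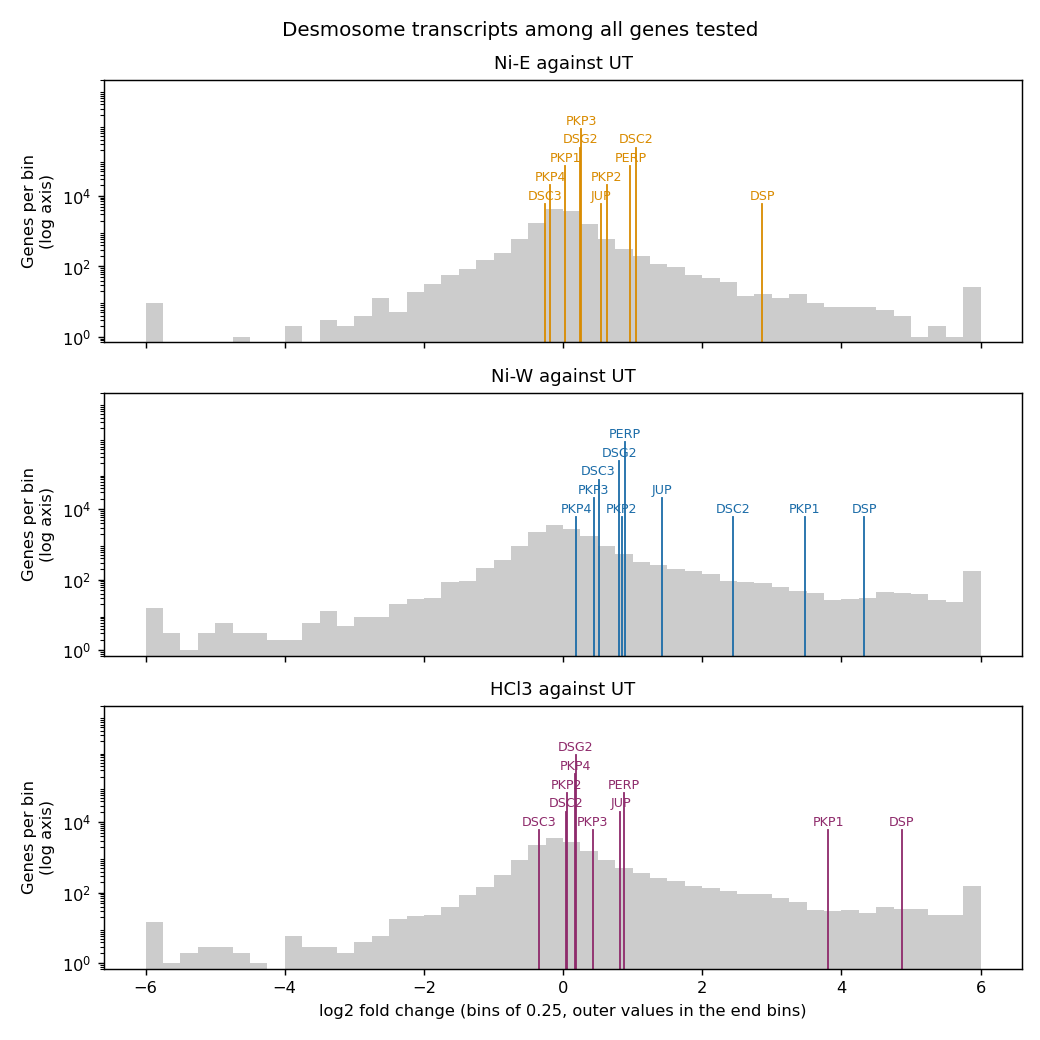
Number of genes (log axis) per bin of log2 fold change against UT in grey, with the 10 desmosome transcripts as labeled vertical lines whose height carries no value. In Ni-E most of them lie near the center and DSP stands at 2.86, while in Ni-W all 10 lie above 0 (0.19 to 4.33).

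The plaque protein desmoplakin gave the largest change. DSP, on chromosome 6 (hg19 chr6:7541870-7586946, plus strand), had 0.23 and 0.34 RPKM in UT cells, 2.19 and 1.93 in Ni-E cells, 5.49 and 5.72 in Ni-W cells, and 8.31 and 8.49 in HCl3 cells. The 4 groups did not overlap, with UT lowest and HCl3 highest. The UT values rest on 95 and 88 reads, far above the 3 reads taken here as the detection floor of a library. Against UT, DSP was 7.26-fold higher in Ni-E cells (log2 fold change 2.86 ± 0.22 SE, adjusted P = 1.8e-34), 20.1-fold higher in Ni-W cells (4.33 ± 0.17, adjusted P = 3.82e-132) and 29.1-fold higher in HCl3 cells (4.86 ± 0.16, adjusted P = 2.93e-200). Its share in the summed level of the 10 genes went from 0.320% in UT cells to 1.90% in Ni-E cells, 3.54% in Ni-W cells and 6.90% in HCl3 cells. Per DSP transcript, the level of JUP went from 52.3 ± 16 (SD) in UT cells to 10.6 ± 1.2 in Ni-E cells, 6.95 ± 0.47 in Ni-W cells and 3.12 ± 0.054 in HCl3 cells, so the components were far from a fixed proportion at the RNA level.

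The RefSeq promoter table (GRCh38.p14) held 8 of the 10 genes, all but PKP2 and PKP3, with 11 transcription start sites. The 250 bases before the start of DSP (chr6:7541421-7541670, plus strand) are shown because DSP changed most, with capitals on the E-box, written CACCTG or CAGGTG on the opposite strand, a sequence recognized by repressors of the SNAIL and ZEB families.
DSP: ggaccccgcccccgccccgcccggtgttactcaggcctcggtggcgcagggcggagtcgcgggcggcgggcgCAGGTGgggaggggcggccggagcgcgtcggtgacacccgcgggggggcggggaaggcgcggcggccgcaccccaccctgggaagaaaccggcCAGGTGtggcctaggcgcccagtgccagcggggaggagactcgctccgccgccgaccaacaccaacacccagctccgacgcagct
This window held 2 E-boxes and 7 GC boxes (GGGCGG on either strand). Its GC content was 78%, against a median of 58% over all promoters, and its ratio of observed to expected CpG was 0.871, against a median of 0.558. Among the 35116 windows in the table, 17.5% held the E-box, 18.5% the core of the hypoxia response element (ACGTG), 4.2% the AP-1 motif (TGACTCA) and 42.6% the GC box, each searched on both strands, and none of these motifs contains another. Of the 11 starts of the desmosome genes, 4 held the E-box, 1 start each of DSP, JUP, DSG2 and DSC2. The ACGTG core was in 1 of the 11 starts, a start of DSC2, the AP-1 motif in 1, that of PERP, and the GC box in 9. These matches describe the letters only, and binding was not measured in these libraries.

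Plakoglobin, the plaque protein shared by desmosomes and adherens junctions, followed a different course. JUP (hg19 chr17:39910859-39942964, minus strand) had 14.65 and 13.92 RPKM in UT cells, 21.36 and 22.20 in Ni-E cells, 39.97 and 37.84 in Ni-W cells, and 26.22 and 26.14 in HCl3 cells. The groups did not overlap, and Ni-W stood above HCl3. The rise in Ni-E (0.55 ± 0.12 on the log2 scale, 1.46-fold, adjusted P = 0.000173) fell just short of 1.5-fold and was not called. JUP was 2.67-fold higher in Ni-W (1.42 ± 0.11, adjusted P = 1.05e-36) and 1.77-fold higher in HCl3 (0.82 ± 0.10, adjusted P = 4.87e-14). When trends with GC and length were taken out, the HCl3 value went under 1.5-fold (0.52).

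Plakophilins are armadillo-repeat proteins that broaden the plaque and help desmoplakin to attach, and the 4 of them are given in turn. PKP1 (hg19 chr1:201252580-201302121, plus strand), which marks the upper layers of stratified epithelium, was the lowest of the 10 genes. It had 7 and 6 reads in UT cells, 10 and 5 in Ni-E cells, 107 and 72 in Ni-W cells, and 97 and 127 in HCl3 cells, or 0.04 and 0.04, 0.05 and 0.03, 0.39 and 0.39, and 0.44 and 0.55 RPKM. UT and Ni-E overlapped near the floor, and all washed-out libraries were well above them. PKP1 was 11.1-fold higher in Ni-W (3.47 ± 0.61, adjusted P = 1.94e-07) and 14.0-fold higher in HCl3 (3.81 ± 0.57, adjusted P = 6.13e-10), both ratios resting on few UT reads. On the log2(RPKM + 1) scale, which shrinks changes of low genes, it stayed under 1.5-fold (0.42 and 0.52 with limma). In Ni-E its log2 fold change was 0.03, with a 95% interval of -2.36 to 2.42, which is too wide to tell a change from none at this depth. Even at its highest, PKP1 remained at 1.35% of the summed plakophilin RPKM.

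PKP2 (hg19 chr12:32943680-33049780, minus strand), the main plakophilin of heart and of simple epithelia, had 2.50 and 3.05 RPKM in UT cells, 4.30 and 4.59 in Ni-E cells, 5.04 and 5.14 in Ni-W cells, and 3.12 and 2.84 in HCl3 cells. Ni-E and Ni-W lay above UT, while HCl3 overlapped it. PKP2 was 1.55-fold higher in Ni-E (0.63 ± 0.18, adjusted P = 0.00655) and 1.80-fold higher in Ni-W (0.85 ± 0.16, adjusted P = 3.84e-06). The Ni-E call was lost without UT replicate 1 (0.49), without Ni-E replicate 1 (0.66, adjusted P = 0.239) and without Ni-E replicate 2 (0.60, adjusted P = 0.26). In HCl3 the difference from UT was 0.05, with a 95% interval of -0.29 to 0.40.

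PKP3 (hg19 chr11:394217-404908, plus strand), found in most epithelia, had 6.56 and 5.28 RPKM in UT cells, 6.82 and 7.94 in Ni-E cells, 8.94 and 7.53 in Ni-W cells, and 8.05 and 8.52 in HCl3 cells. All nickel-treated libraries were above UT, by little. The log2 fold changes were 0.26 in Ni-E cells (adjusted P = 0.393), 0.44 in Ni-W cells (adjusted P = 0.0286) and 0.43 in HCl3 cells (adjusted P = 0.0192), and none reached 1.5-fold. Without UT replicate 1, PKP3 was called in Ni-W (0.61) and in HCl3 (0.59).

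PKP4 (hg19 chr2:159313476-159537940, plus strand), which sits at adherens junctions as well as at desmosomes, was the most abundant plakophilin in every library. It had 23.24 and 26.41 RPKM in UT cells, 22.88 and 22.52 in Ni-E cells, 27.93 and 30.15 in Ni-W cells, and 29.48 and 28.78 in HCl3 cells. Ni-E was slightly below UT and the washed-out libraries slightly above it, and the log2 fold changes of -0.18, 0.19 and 0.18 did not pass the test (adjusted P = 0.364, 0.2 and 0.187). By share of the summed plakophilin RPKM, PKP4 held 73.9 ± 2.9% in UT cells, 65.7 ± 2.1% in Ni-E cells, 67.9 ± 2.7% in Ni-W cells and 71.2 ± 0.72% in HCl3 cells. The share of PKP2 was 8.25 ± 0.73% in UT cells, 12.9 ± 0.32% in Ni-E cells, 11.9 ± 0.014% in Ni-W cells and 7.29 ± 0.43% in HCl3 cells.

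**Figure D4:**
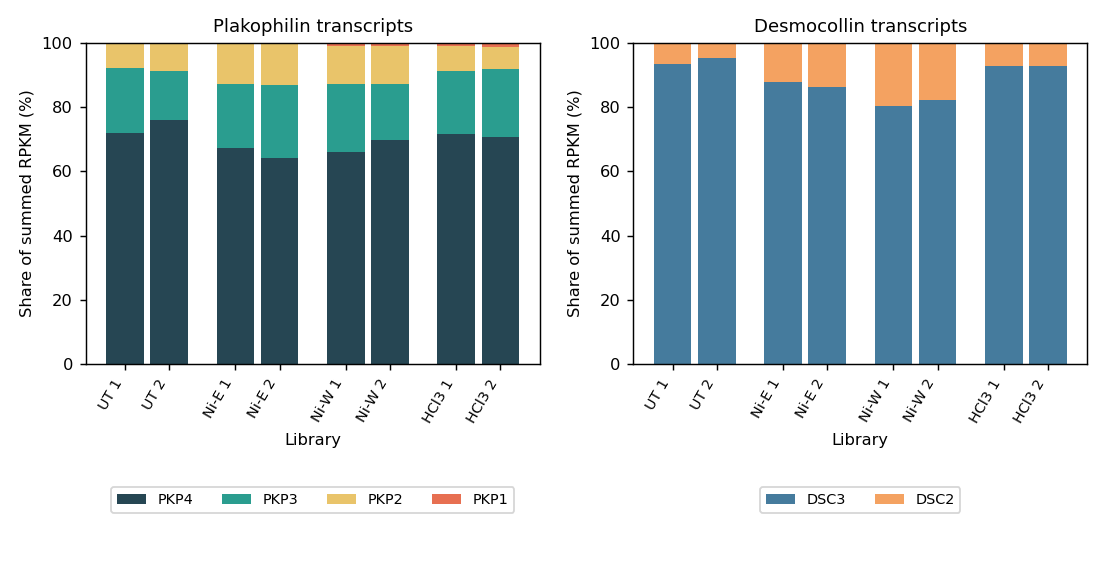
Share of each plakophilin in the summed plakophilin RPKM (left) and of DSC2 and DSC3 in their summed RPKM (right), in percent, for each library. PKP2 widens from 7.73 and 8.77% in UT cells to 12.6 and 13.1% in Ni-E cells, and DSC2 from 6.78 and 4.71% in UT cells to 19.6 and 17.9% in Ni-W cells.

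The desmosomal cadherins of these cells came down to DSG2, DSC2 and DSC3. DSG1 and DSG4 had no read in any library, which at these depths allows a level of up to 3 reads per library. DSG3 had at most 2 reads and DSC1 at most 5 reads in a library, so the desmogleins and desmocollin best known from skin were at or near the floor in every group. All 7 genes lie in a cluster on chromosome 18. DSG2 (hg19 chr18:29078027-29128814, plus strand), the widely expressed desmoglein, had 12.35 and 14.88 RPKM in UT cells, 17.49 and 16.02 in Ni-E cells, 23.41 and 25.42 in Ni-W cells, and 16.60 and 15.37 in HCl3 cells. Ni-W stood clear of all other libraries, and HCl3 overlapped Ni-E. DSG2 was 1.75-fold higher in Ni-W cells (0.81 ± 0.12, adjusted P = 1.04e-09), and its log2 fold changes of 0.25 in Ni-E cells and 0.18 in HCl3 cells did not pass the test (adjusted P = 0.242 and 0.252). An uncharacterized gene on the opposite strand overlaps DSG2 and had 1 to 11 reads, and one that overlaps DSC2 had at most 1 read.

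Desmocollin 2, the widespread desmocollin, moved most among the cadherins. DSC2 (hg19 chr18:28645942-28682388, minus strand) had 1.19 and 0.99 RPKM in UT cells, 2.08 and 2.63 in Ni-E cells, 6.23 and 5.97 in Ni-W cells, and 1.22 and 1.13 in HCl3 cells. Ni-E was above UT and Ni-W above Ni-E, while HCl3 overlapped UT. DSC2 was 2.07-fold higher in Ni-E (1.05 ± 0.22, adjusted P = 8.61e-05) and 5.43-fold higher in Ni-W (2.44 ± 0.16, adjusted P = 6.62e-47). The call in Ni-E was lost without Ni-E replicate 2 (0.89, adjusted P = 0.132). In HCl3 the log2 fold change was 0.04, with a 95% interval of -0.40 to 0.49. One of its RefSeq start sites has an E-box in the 250 bases before it (GRCh38.p14 chr18:31102422-31102671, minus strand, E-box in capitals), shown because DSC2 had the largest difference between the 2 washed-out populations among the 10 genes.
DSC2: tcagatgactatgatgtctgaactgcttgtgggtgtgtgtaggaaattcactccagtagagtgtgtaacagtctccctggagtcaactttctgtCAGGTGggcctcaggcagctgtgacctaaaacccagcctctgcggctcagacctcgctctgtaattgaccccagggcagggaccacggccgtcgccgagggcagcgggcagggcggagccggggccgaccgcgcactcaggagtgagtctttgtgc
The window before its other start held no E-box and 3 copies of the ACGTG core.

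DSC3 (hg19 chr18:28569331-28622781, minus strand), the desmocollin of the basal layers of stratified epithelium, was the major desmocollin here. It had 16.35 and 20.02 RPKM in UT cells, 15.07 and 16.53 in Ni-E cells, 25.60 and 27.42 in Ni-W cells, and 15.31 and 14.34 in HCl3 cells. Ni-W was highest and HCl3 was below both UT libraries. None of the comparisons with UT was called. DSC3 was at -0.26 on the log2 scale in Ni-E cells (adjusted P = 0.188), at 0.51 in Ni-W cells (adjusted P = 0.000185) and at -0.35 in HCl3 cells (adjusted P = 0.0094), and without UT replicate 2 it was called in Ni-W cells (0.66). Set side by side, DSC2 took 5.75 ± 1.5% of the summed RPKM of DSC2 and DSC3 in UT cells, 12.9 ± 1.1% in Ni-E cells, 18.7 ± 1.2% in Ni-W cells and 7.34 ± 0.054% in HCl3 cells.

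PERP, a tetraspan membrane protein of desmosomes and a target of p53 and p63, rose in each of the 3 nickel-treated groups. PERP (hg19 chr6:138409642-138428660, minus strand) had 7.37 and 7.70 RPKM in UT cells, 16.65 and 13.95 in Ni-E cells, 13.87 and 14.64 in Ni-W cells, and 14.78 and 13.96 in HCl3 cells. Every treated library was above both UT libraries, and the 3 treated groups overlapped one another. PERP was 1.96-fold higher in Ni-E cells (0.97 ± 0.14, adjusted P = 7.33e-10), 1.85-fold higher in Ni-W cells (0.88 ± 0.12, adjusted P = 7.28e-12) and 1.84-fold higher in HCl3 cells (0.88 ± 0.11, adjusted P = 2.14e-13). The differences among treated groups were -0.10 for Ni-W against Ni-E (95% interval -0.34 to 0.14), -0.11 for HCl3 against Ni-E (-0.33 to 0.12) and -0.0028 for HCl3 against Ni-W (-0.18 to 0.17). Its promoter window (GRCh38.p14 chr6:138107420-138107669, minus strand) is shown as that of a gene called in each treated group whose window holds no E-box.
PERP: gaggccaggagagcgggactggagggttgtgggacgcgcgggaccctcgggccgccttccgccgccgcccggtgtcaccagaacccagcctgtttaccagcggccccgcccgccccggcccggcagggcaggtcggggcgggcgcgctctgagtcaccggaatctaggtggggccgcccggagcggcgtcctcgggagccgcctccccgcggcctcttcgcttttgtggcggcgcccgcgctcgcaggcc
It held 1 AP-1 motif and 5 GC boxes, at a GC content of 77.2%.

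The treated groups were then compared directly, which tests the differences between them and does not use the UT libraries. Against Ni-E, 5 of the 10 genes were higher in Ni-W, against 12.0% of 15638 genes tested, and none was lower, against 9.04% (0 genes at an unadjusted P value under 0.05 with DESeq2, edgeR or limma). These were PKP1 (3.41 ± 0.60), DSP (1.45 ± 0.13, 2.73-fold, adjusted P = 7.77e-28), DSC2 (1.38 ± 0.15), JUP (0.85 ± 0.096) and DSC3 (0.75 ± 0.095). DSG2 was just under 1.5-fold (0.55, adjusted P = 1.34e-06), and it was called without Ni-E replicate 1 (0.63) or without Ni-W replicate 1 (0.61). DSC3 went under 1.5-fold (0.52) when trends with GC and length were taken out. PKP4 and PKP2 were at 0.36 and 0.20, and PKP3 at 0.17, and the median of the 10 genes was 0.65, against 0.014 over all genes tested.

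In HCl3 against Ni-E, 2 of the 10 genes were higher, against 10.6% of 15603 genes, and 2 were lower, against 6.95%. DSP was 3.95-fold higher (1.98 ± 0.11, adjusted P = 7.72e-68) and PKP1 13.5-fold higher (3.75 ± 0.57, adjusted P = 6.74e-10). DSC2 was 2.03-fold lower (-1.02 ± 0.20, adjusted P = 1.48e-06) and PKP2 1.5-fold lower (-0.59 ± 0.15, adjusted P = 0.000349). The PKP2 call sat at the fold threshold and was lost without Ni-E replicate 2 (-0.57) and without HCl3 replicate 2 (-0.52, adjusted P = 0.114), and also with all 8 libraries in the fit or a mean count of at least 10 (both -0.58). The remaining genes were between -0.11 (PERP) and 0.34 (PKP4), and the median of the 10 genes was 0.037, against 0.011 over all genes tested.

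The 2 washed-out populations differed in the levels of some desmosome transcripts. In HCl3 against Ni-W none of the 10 genes was called higher by DESeq2, against 3.18% of 14605 genes tested, and 5 were lower, against 1.72%. With edgeR 0 were higher and 5 lower, with limma 0 were higher and 3 lower, and DSP was the 1 gene higher at an unadjusted P value under 0.05 with each. The lower genes were DSC2 (5.28-fold, -2.40 ± 0.13, adjusted P = 8.42e-68), DSC3 (1.81-fold, -0.85 ± 0.079, adjusted P = 3.01e-24), PKP2 (1.73-fold, -0.79 ± 0.13, adjusted P = 1.18e-07), DSG2 (1.54-fold, -0.63 ± 0.085, adjusted P = 1.9e-11) and JUP (1.5-fold, -0.59 ± 0.078, adjusted P = 6.09e-12). The median log2 fold change of the 10 genes was -0.30, against -0.00099 over all genes tested. All 3 desmosomal cadherins with more than a few reads were thus lower in HCl3, together with a plakophilin and plakoglobin. DSP went the other way and was 1.45-fold higher in HCl3 (0.54 ± 0.087, adjusted P = 4.8e-08), under the fold threshold. PKP1 was at 0.34 (95% interval -0.27 to 0.96), PKP3 at -0.0092, PKP4 at -0.011 and PERP at -0.0028. The summed RPKM of the cadherins was 57.0 ± 2.5 in Ni-W cells and 32.0 ± 1.6 in HCl3 cells, against 32.9 ± 4.2 in UT cells. The JUP call was lost without Ni-W replicate 1 (-0.56), without HCl3 replicate 1 (-0.58) and with limma (-0.55). The DSG2 call was lost without Ni-W replicate 2 (-0.56) and without HCl3 replicate 2 (-0.57), and also with limma (-0.58) and when trends with GC and length were taken out (-0.53).

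**Figure D5:**
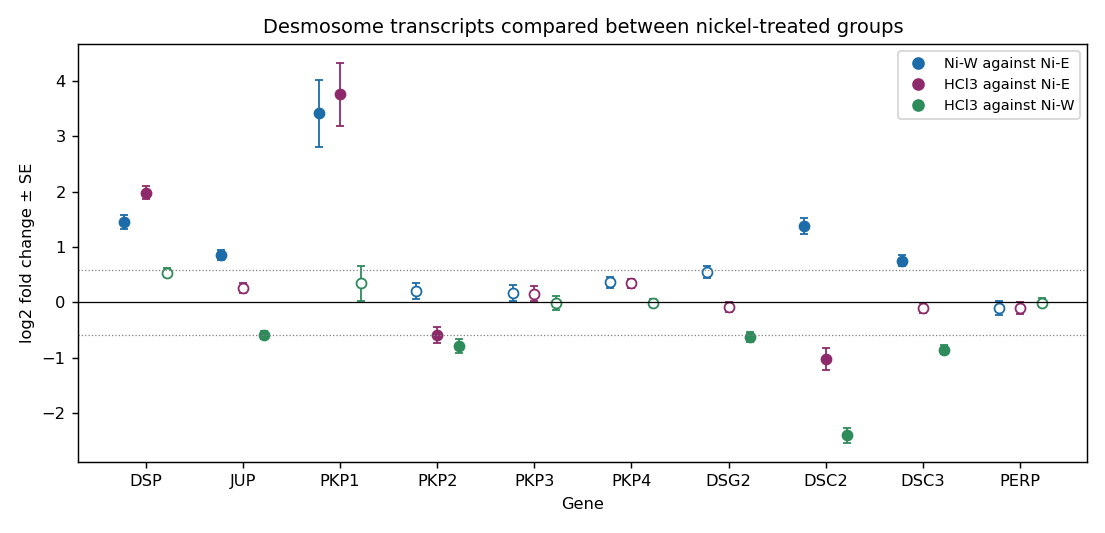
Log2 fold change (± SE from DESeq2) of each desmosome transcript between treated groups, with called genes as filled points, all others open, and dotted lines at 1.5-fold. In HCl3 against Ni-W the 5 filled points are JUP, PKP2, DSG2, DSC2 and DSC3, all below 0 (-0.59 to -2.40).

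Position along the chromosome was looked at because DSC2, DSC3 and DSG2 are neighbors on chromosome 18. Among the 16 expressed genes within 5 Mb of DSC2 (desmosome genes left out), the median log2 fold change of HCl3 against Ni-W was -0.42, against -0.0036 for all expressed genes, and it was -0.42 around DSC3 and -0.32 around DSG2. The windows of these 3 genes overlap over most of their length, so their medians are not separate results. For Ni-W against UT these medians were 0.14, 0.21 and 0.10. For HCl3 against UT they were -0.14, -0.14 and -0.17, where DSC2 was at 0.04, DSC3 at -0.35 and DSG2 at 0.18. The neighbors thus had the sign of the 3 cadherin genes and a smaller median change in the first 2 of these comparisons, but not the sign of DSC2 and DSG2 in the third, and the part of the region in the result was not tested. Around PKP1 the median of 60 genes was 0.47 in Ni-W against UT and 0.12 in HCl3 against UT. Around PKP4 the median of 15 genes was 0.55 and 0.52 in these comparisons, above the 0.19 and 0.18 of PKP4 itself. The 42 genes around DSP had medians between -0.18 and 0.026 in the 3 comparisons with UT, and the 22 genes around PERP between -0.20 and -0.027.

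Genes that work next to the desmosome were grouped into lists by function, and their counts stand against the shares of all genes called, which were 3.84% higher and 2.1% lower in Ni-E, 11.1% and 4.95% for Ni-W, and 11.4% and 3.84% for HCl3. With limma, where no gene at all was called in Ni-E, no list had a call there, and the lower calls of VIM and GRHL1 and the higher calls of CDH3 were also lost in the washed-out groups. Among 10 plakins and linkers, which join junctions to the cytoskeleton, none was higher in Ni-E with DESeq2 (0 at an unadjusted P value under 0.05, also with edgeR) and DST and VIM were lower. PPL (periplakin, a relative of desmoplakin) was the single gene higher in each of Ni-W and HCl3. There 1 of 10 was near the share of all genes called higher (11.1% and 11.4%). PPL had 0.16 and 0.14 RPKM in UT cells, 0.04 and 0.10 in Ni-E cells, 1.27 and 1.04 in Ni-W cells, and 1.44 and 1.47 in HCl3 cells, with log2 fold changes of 2.88 ± 0.31 in Ni-W cells (adjusted P = 3.43e-18) and 3.19 ± 0.28 in HCl3 cells (adjusted P = 4.47e-27). It was high in all washed-out libraries and low in all others. VIM (vimentin, the filament protein of mesenchymal cells) fell in Ni-E (-0.74 on the log2 scale, adjusted P = 5.64e-08) and Ni-W (-0.73, adjusted P = 3.07e-09), and was at -0.0037 in HCl3 (adjusted P = 0.983). The median of the list was -0.36 in Ni-E cells, -0.094 in Ni-W cells and 0.026 in HCl3 cells.

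Of 15 keratins, the epithelial filament proteins that desmoplakin holds, 7 or 8 had enough reads to be tested. KRT17 was the 1 keratin called in Ni-E cells, 4 were higher in Ni-W cells (KRT17, KRT19, KRT7 and KRT80), 4 in HCl3 cells (KRT17, KRT18, KRT19 and KRT7), and none was lower. At an unadjusted P value under 0.05, 0 were lower with DESeq2 and edgeR in each, and with limma 1 was lower in Ni-W and 0 in Ni-E and HCl3. The shares of all genes called higher were 3.84%, 11.1% and 11.4%. KRT17, a keratin of stressed and basal epithelium, rose by 2.21 ± 0.56 in Ni-E cells (adjusted P = 0.00162), 2.54 ± 0.16 in Ni-W cells (adjusted P = 1.6e-54) and 2.61 ± 0.15 in HCl3 cells (adjusted P = 2.79e-64) on the log2 scale. KRT7, a keratin of simple epithelia at 207 to 481 RPKM, rose by 0.81 ± 0.093 in Ni-W and 0.62 ± 0.087 in HCl3. KRT80 rose by 0.76 ± 0.11 in Ni-W, and its 0.50 in HCl3 was under 1.5-fold. The median of the keratins tested was 0.12 in Ni-E cells, 0.64 in Ni-W cells and 0.56 in HCl3 cells.

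Hemidesmosomes fasten cells to the basement membrane and share the link to keratin. Of 7 genes, 6 could be tested, and 2 were higher in Ni-E cells, 3 in Ni-W cells and 3 in HCl3 cells, with none lower (1 gene for Ni-E, 1 for Ni-W and 0 for HCl3 at an unadjusted P value under 0.05 with DESeq2 and with edgeR). ITGB4, the β4 integrin that binds the filament linker, had 1.44 and 0.91 RPKM in UT cells, 1.88 and 3.03 in Ni-E cells, 4.53 and 3.85 in Ni-W cells, and 5.42 and 5.36 in HCl3 cells, with log2 fold changes of 1.00 ± 0.26, 1.80 ± 0.21 and 2.14 ± 0.18. LAMB3, a chain of the laminin it holds, changed by 0.82 ± 0.14, 1.70 ± 0.12 and 1.31 ± 0.11. ITGA6, the partner of ITGB4, was at 0.04 ± 0.15 in Ni-E cells and rose by 0.71 ± 0.14 in Ni-W cells and 0.82 ± 0.12 in HCl3 cells. Of 10 genes of the adherens junction, 1 was higher in each comparison with UT and none was lower, with 3, 0 and 1 lower at an unadjusted P value under 0.05 in Ni-E, Ni-W and HCl3 (DESeq2 and edgeR alike). In Ni-W and HCl3 1 of 10 was near the share of all genes called higher (11.1% and 11.4%). The gene was PVRL4 in Ni-E cells (1.83 and 1.15 RPKM, against 0.25 and 0.27 in UT cells) and CDH3 (P-cadherin) in Ni-W cells (0.43 and 0.48 RPKM, against 0.18 and 0.10 in UT cells) and HCl3 (0.48 and 0.49 RPKM), both named after their values were seen because each count was 1. CDH2 (N-cadherin) was between 54.1 and 83.5 RPKM in all libraries and CDH1 at most 0.11 RPKM.

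Of 15 transcription factors known to act on epithelial junction genes, 10 or 11 could be tested. In Ni-E 1 was higher (ZEB1) and 1 lower (ZEB2), in Ni-W 3 were higher (ELF3, SNAI2 and ZEB1) and 1 lower (GRHL1), and in HCl3 4 were higher (ELF3, SNAI1, SNAI2 and ZEB1) and 1 lower (GRHL1). A single lower gene among 10 or 11 was not far from the share of all genes called lower (4.95% for Ni-W and 3.84% for HCl3), and the GRHL1 call was lost with limma. SNAI2 (SLUG, a repressor that binds E-boxes) rose by 2.15 ± 0.45 in Ni-W cells (adjusted P = 1.72e-05) and 2.19 ± 0.42 in HCl3 cells (adjusted P = 2.07e-06), and was at 0.96 ± 0.57 in Ni-E cells (adjusted P = 0.306). Its level was low, at 0.32 and 0.26 RPKM (29 and 16 reads) in UT cells and 1.10 and 1.58 RPKM in Ni-W cells. ZEB1 averaged 1.12 RPKM in UT cells and 2.25 in Ni-W cells, and ZEB2 17.9 and 15.4. ELF3, an activator of epithelial genes, rose by 1.99 ± 0.17 in Ni-W and 1.24 ± 0.17 in HCl3, and was lower in HCl3 than in Ni-W (-0.75 ± 0.12, adjusted P = 1.65e-08), a call lost with limma. GRHL1, an activator of desmosomal cadherin genes in the epidermis, fell in Ni-W (-1.42, adjusted P = 0.000339) and HCl3 (-1.04, adjusted P = 0.00733).

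Of 9 genes of signaling and shedding at desmosomes, none was called in Ni-E cells, 2 were higher in Ni-W cells (EGFR and ADAM10) and 1 in HCl3 cells (EGFR). The shares of all genes called higher were 3.84%, 11.1% and 11.4%, so that 1 of 9 in HCl3 was near the share. For the count of 0 in Ni-E, DESeq2 and edgeR each gave 2 higher and 2 lower genes at an unadjusted P value under 0.05, and limma 2 higher and 0 lower. ADAM10 was at -0.35 there (adjusted P = 0.0373), under 1.5-fold. EGFR, whose signaling loosens desmosomes, rose by 0.78 ± 0.12 in Ni-W (adjusted P = 1.01e-09) and 1.06 ± 0.10 in HCl3 (adjusted P = 7.64e-23). ADAM10, a protease that sheds cadherins, rose by 0.77 ± 0.11 in Ni-W, and its 0.53 in HCl3 was under 1.5-fold.

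Genes whose pattern across the 3 comparisons with UT was most like that of a desmosome gene were found by the root mean square difference of the 3 log2 fold changes, over 12009 genes that averaged at least 50 normalized counts. COL4A4, a basement membrane collagen chain, was nearest to DSP at a difference of 0.43, with log2 fold changes of 2.54, 4.88 and 4.49. ATP2A3 (0.53), GALNT14 (0.60), SLC22A17 (0.63) and PALM2 (0.64) followed. The nearest desmosome gene to DSP was DSC2, at rank 529 with a difference of 3.17. For JUP the nearest genes were ADARB1 (0.087) and RBM26-AS1 (0.091), an antisense RNA whose reads cannot be told apart from those of its partner gene without strand, and the nearest component was PERP at rank 176. For PKP2 they were CDS1 (0.099) and TMCC2 (0.15), with DSG2 at rank 24. For DSC2 they were FBLN5 (0.51) and PDZK1IP1 (0.52), with JUP at rank 18, and for PERP SCAMP5 (0.041) and PHOSPHO2-KLHL23 (0.044), a readthrough of neighboring genes that may share their reads, with JUP at rank 240. PKP1 was below this minimum. With a minimum of 10 in place of 50, the genes nearest to DSP were SAMD5 (0.39), COL4A4 (0.43), COL9A3 (0.49), OGDHL (0.52) and SORCS2 (0.52). Of the genes first named for DSP only COL4A4 remained, so that list depends on the minimum. PKP1 replaced DSC2 as the component nearest to DSP, at rank 190 with a difference of 1.81. The genes nearest to DSC2 were then CDH10 (0.18) and VNN1 (0.40), and those nearest to JUP and PKP2 became C19orf57 (0.076) and CKMT1B (0.068).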

How the data were processed

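RNA-Seq reads had been aligned by the authors to the human genome (hg19) with STAR (version 2.4, per the submitters' processing notes), reads with several alignments removed, and counted per RefSeq gene in the BioWardrobe system. The deposited values are read counts and RPKM per gene and library. RPKM was derived by the authors from these counts, the transcript length and the mapped reads, rounded to 2 decimals. Whether strand was used in counting is not given in the sources used here, so that antisense reads cannot be told apart. Replicates were not pooled.

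The 10 genes were taken by symbol. They and the partner lists were chosen with earlier results of these data known. Counts of all 25411 genes were tested in R 4.3.3 with DESeq2 1.42.0 (4 libraries of each pair, two-sided Wald test, median-of-ratios size factors, Benjamini-Hochberg over all genes tested). Calls needed an adjusted P value under 0.05 and 1.5-fold. All 10 passed the independent filter in every comparison. Alternatives were edgeR 4.0.16 (quasi-likelihood), limma 3.58.1 on log2(RPKM + 1), TMM, all 8 libraries, a mean count of at least 10, no fold threshold, the repeat suffix as a block, removal of GC and length trends, and each library left out. The crossed block was added after seeing the data. On simulated data with 200 changed genes out of 25411 for Ni-W against UT, DESeq2 recovered 190 with 0 false calls, edgeR 195 with 3 and limma 178 with 1. With a GC trend planted, DESeq2 recovered 142 with 0 false calls, and 189 with 1 once the trend was removed. The planted changes all exceeded 1.5-fold, in genes averaging at least 50 reads, with the same spread set for all genes. Recovery of changes near 1.5-fold or in low genes such as PKP1 was therefore not tried.

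Named genes were the 10 components, the 4 other desmosomal cadherins, and from each partner list the 3 with the largest change in Ni-W against UT among those called and averaging at least 50 normalized counts, plus the genes most like a component. Other genes beside counts of 5 or fewer were named after their values were seen. The label suffix separates 2 biological replicates, with no further word on separate cultures, so P values measure the spread between these libraries. Totals were 26383920 to 45692298 reads. The floor was 3 reads in a library. Without molecular identifiers, floors and intervals on reads cover counting error only. Promoter sequences are from RefSeq. Figures were drawn with matplotlib 3.10.9.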

Additional observations from a re-analysis of the deposited data

Results flagged for a closer look

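The comparison of HCl3 with Ni-W tests directly whether the 2 washed-out populations, which carry the same treatment text, differ in their change from UT, and 5 desmosome genes passed it with DESeq2. DSC2 had the largest difference, with a log2 fold change of -2.40 and no overlap of the libraries. DSC3 was at -0.85, PKP2 at -0.79, DSG2 at -0.63 and JUP at -0.59, each lower in both HCl3 libraries than in both Ni-W libraries. The calls of DSG2 and JUP sat near the 1.5-fold threshold and were lost with limma and without some of the libraries. Marker sums of epithelium and fibroblasts and the neighbors of the cadherin genes on chromosome 18 also differed between these groups, and their part was not tested.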

How the results depend on the processing

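Among the log2 fold changes of single components under the alternatives, 681 kept their direction and side of the threshold, 30 kept their direction and lost a call, 5 gained a call and 32 changed sign, these 32 all of genes that were not called. In HCl3 against Ni-W, DSC2, DSC3 and PKP2 were called under every alternative. DSP and PERP were called against UT under every alternative, except that limma on log2(RPKM + 1) did not call them in Ni-E (adjusted P = 0.0762 and 0.0786). With limma, 0 components were called in Ni-E against UT in place of 4, 2 in HCl3 against Ni-E in place of 4, and 3 in HCl3 against Ni-W in place of 5. It also called 6 in Ni-W against UT in place of 7, 3 in HCl3 against UT in place of 4, and 4 in Ni-W against Ni-E in place of 5. Leaving out a library gave 2 to 4 components in Ni-E against UT, with 2 without Ni-E replicate 2. The labels do not say whether libraries with the same repeat suffix belong together. The deviations of same-numbered libraries correlated at -0.16 to 0.22. With only 2 libraries in a group, these correlations can neither show nor exclude a shared batch. With the repeat suffix as a replicate block, 3, 7, 4, 5, 4 and 5 components were called in the 6 comparisons. PKP2 was lost in Ni-E against UT (0.63, adjusted P = 0.0938), with no other call changed. The crossed block, added after seeing the data, gave 4, 4 and 5 components in Ni-E against UT, HCl3 against UT and Ni-W against Ni-E. Over all genes, Ni-E against UT gave 840 calls, 491 with the block, 636 with the crossed block, 402 with the block and GC and length trends removed, 354 to 622 without a library (438 without UT replicate 2, 354 and 496 without Ni-E replicate 1 and 2), and 0 with limma, where 3988 were under an unadjusted 0.05. HCl3 against Ni-W gave 716, 466 with the block, 441 with the block and those trends removed, 329 to 530 without a library (462 without Ni-W replicate 1, 391 and 329 without HCl3 replicate 1 and 2) and 247 with limma. Limma also gave 1409 in place of 2491 for Ni-W against UT, 1305 in place of 2349 for HCl3 against UT, 1989 in place of 3283 for Ni-W against Ni-E and 1655 in place of 2742 for HCl3 against Ni-E. Without Ni-W replicate 1, Ni-W against UT gave 1523, and without HCl3 replicate 1 and 2, HCl3 against UT gave 1425 and 1339. Without HCl3 replicate 1, HCl3 against Ni-E gave 1755. A group left with 1 library was assumed to vary like the other. The median log2 fold change of all genes stayed within 0.05 of 0 under each setting. Signs changed as follows, and the cause was not tested. In Ni-E against UT, PKP1 was -0.037 with the block, -0.000067 with limma, -0.052 with GC and length trends removed and the block, -0.046 with the crossed block and -0.57 to 0.46 without a library. PKP3 there was -0.041 with the trends removed and -0.042 with the block added, and DSC3 0.011 and 0.010. In HCl3 against UT, PKP3 was -0.0030 and -0.0016 with these settings, PKP2 -0.088 to 0.20 and DSC2 -0.083 to 0.18 without a library. Without a library PERP was -0.25 to 0.052 in Ni-W against Ni-E, and in HCl3 against Ni-E DSG2 was -0.17 to 0.0023 and PERP -0.25 to 0.047. In HCl3 against Ni-W, limma gave PKP3 0.012, PKP4 0.0052 and PERP 0.011, removal of the trends gave PKP4 0.012 and PERP 0.098, the same values as with the block added, and leaving out a library gave PKP3 -0.12 to 0.12, PKP4 -0.073 to 0.049 and PERP -0.049 to 0.039. The ratios of PKP1 against UT and Ni-E rest on 5 to 10 reads per library.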
